A study of Mus musculus with 4 samples.

Results

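The clustered histone genes encode the core histones H2A, H2B, H3 and H4 and the linker histone H1, and were taken as every gene of the deposited table whose symbol starts with Hist1h, Hist2h, Hist3h or Hist4h. There were 68 such genes among 23420. They comprised 5 linker genes (Hist1h1a to Hist1h1e), 3 testis-specific genes (Hist1h1t, Hist1h2aa and Hist1h2ba), 59 replication-type core genes (17 H2A, 17 H2B, 12 H3 and 13 H4) and 1 pseudogene. These classes follow the gene symbol alone and not the end of the transcript. By the GENCODE annotation of the mouse build GRCm38, 54 of them lay on chromosome 13, 10 on chromosome 3, 3 on chromosome 11 and 1 on chromosome 6. RNA was measured in pachytene spermatocytes, male germ cells in the long middle stage of meiotic prophase, which were sorted by FACS from testes of wild-type C57BL/6 mice of 23 weeks of age. Sorted cells were cultured for 24 h with the solvent DMSO (Ctrl, 2 libraries) or with 10 µM AZ20, an inhibitor of the DNA damage response kinase ATR (AZ20, 2 libraries), and the RNA of 15000 cells went into each library. Per the methods, cells of a mouse were divided between the 2 treatments, so libraries with the same replicate number are taken to share a mouse, and no untreated or freshly sorted cells were analysed here. The comparison asks whether RNA of histone genes differed after inhibition of ATR, while the study itself addressed silencing of the sex chromosomes.

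Replication-type histone genes supply the histones that package newly copied DNA. They are transcribed mainly in S phase, and their mRNAs end in a short stem-loop in place of a poly(A) tail. The stem-loop binding protein SLBP holds this structure during processing and translation. Spermatocytes have passed their last S phase. They draw instead on testis-specific histones such as H1t, TH2A and TH2B, and on replacement variants, whose genes lie outside the clusters and whose mRNAs carry poly(A) tails. The library kit starts cDNA synthesis from the poly(A) tail with an oligo-dT primer, and the authors kept reads that align to a single place in the genome. Both steps bear on every level given here, because stem-loop mRNAs without a tail and genes with near-identical copies can then be under-counted.

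The stem-loop is the sequence that sets these mRNAs apart, so the sites of 6 members are shown from the GENCODE transcripts of GRCm38, 5′ to 3′, with the 16-base stem-loop in capitals and 5 flanking bases on each side. They stand for the member with most reads (Hist3h2a), the H2B member with most TPM (Hist1h2bp), 2 H4 members whose groups did not overlap (Hist1h4h and Hist1h4c), the testis linker (Hist1h1t) and a somatic linker without a read (Hist1h1c).
Hist3h2a: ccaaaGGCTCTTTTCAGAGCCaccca
Hist1h2bp: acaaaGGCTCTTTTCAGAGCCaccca
Hist1h4h: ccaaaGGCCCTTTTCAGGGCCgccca
Hist1h4c: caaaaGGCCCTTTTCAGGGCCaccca
Hist1h1t: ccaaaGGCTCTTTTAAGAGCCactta
Hist1h1c: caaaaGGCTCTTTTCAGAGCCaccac
Letters of the form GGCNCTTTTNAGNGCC (N, any base), searched on the transcript strand only, were found in 42 of the 68 members and in 47 of 55341 annotated genes (0.0849%). H4 members differed from the rest in the stem. They read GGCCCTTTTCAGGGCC in 7 and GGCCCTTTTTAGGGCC in 2, and neither form occurred in another class. The other members read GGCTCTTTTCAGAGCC in 26, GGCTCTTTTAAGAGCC in 6 and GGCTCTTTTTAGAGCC in 1. A match describes these letters in the annotated transcript only. Annotated transcripts of Hist1h4a, Hist1h4b, Hist1h2ba, Hist1h2aa, Hist2h2be and Hist2h2ab held no match. Those of Hist1h2ba (384 bases) and Hist1h2aa (390 bases) are coding sequence only, so a stem-loop after the stop codon could not be found in them.

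Reads of the clustered genes were scarce in both groups. TPM (a transcript's share of its library after division by length) was the deposited unit, and the whole reads behind it were recovered from the steps in its values. Reads on the 68 genes numbered 849 and 737 in Ctrl and 1426 and 908 in AZ20. These were 0.00606% (95% Wilson interval 0.00567 to 0.00649%), 0.00464% (0.00432 to 0.00499%), 0.00703% (0.00667 to 0.00740%) and 0.00489% (0.00458 to 0.00521%) of the reads on genes. The intervals cover counting error only, and whether the authors counted read pairs or single reads is not given in the sources used here, so they are too narrow if both mates of a pair were counted. No read was found on 31 members in any library, 1 to 9 reads over the 4 libraries on 18, and at least 10 on 19. Reads in every library were found on 16 members. The 4 members with most reads (Hist3h2a, Hist2h2be, Hist1h2bp and Hist1h4h) held 80.9% of all member reads, and Hist3h2a alone held 51.4%.

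**Figure D1:**
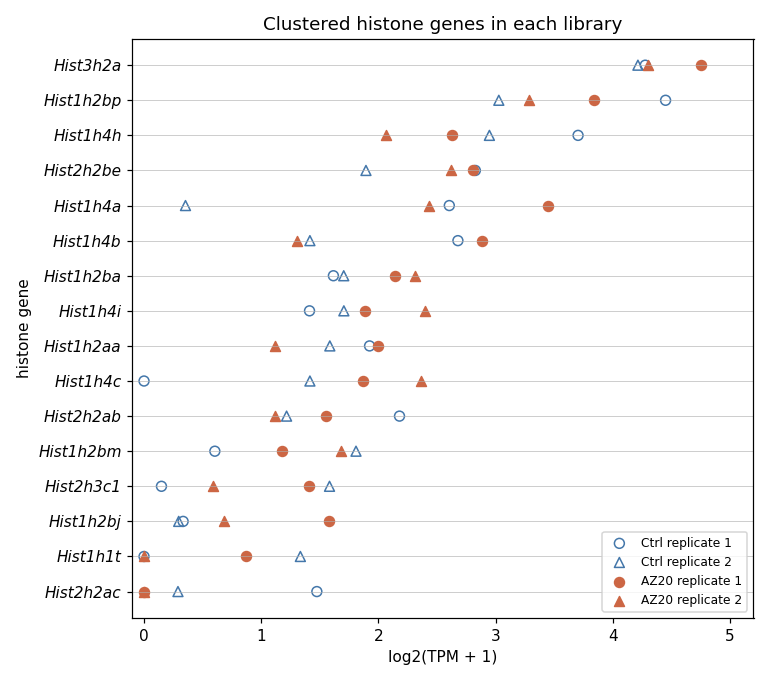
Level of the 15 members that passed the filter (a group mean over 1 TPM), and of Hist1h1t, as log2(TPM + 1) on the horizontal axis, with 1 symbol per library (open blue, Ctrl; filled orange, AZ20; circles, replicate 1; triangles, replicate 2). Hist3h2a is highest in every library but Ctrl replicate 1, where Hist1h2bp is, and the spread within a group is widest for Hist1h4a, from 0.278 to 5.08 TPM in Ctrl.

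The linker genes of somatic cells were close to undetected. Over the 4 libraries, Hist1h1d (chr13:23553262-23560686) had 1 read and Hist1h1e (chr13:23620629-23622558) had 2, all of them together giving 0.0513 and 0 TPM in Ctrl and 0 and 0.0651 TPM in AZ20. Hist1h1a, Hist1h1b and Hist1h1c had 0 reads. A count of 0 in a library allows up to 3 reads. In the shallowest library that corresponds to 0.401 TPM for Hist1h1a, 0.400 for Hist1h1b and 0.191 for Hist1h1c. These limits take the GENCODE transcript length. The length behind the TPM of a gene without reads is unknown, so the limits are approximate and can be too low. In all 5, no window of 150 bases had an exact copy in the GENCODE transcripts of another gene that does not overlap it. Hist1h1e overlaps Hist1h2be, and with overlapping genes counted 1434 of its 1781 windows were without a copy. Copies elsewhere in the genome were not searched. A difference between Ctrl and AZ20 was not detectable at this depth for any linker gene.

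The testis-specific members were present at low levels. Hist1h2ba (chr13:23933773-23934156), which encodes the testis H2B variant TH2B, stood at 2.07 and 2.26 TPM in Ctrl and at 3.40 and 3.97 TPM in AZ20, from 8, 10, 19 and 20 reads. Both AZ20 libraries were above both Ctrl libraries. The change was 0.57 on the log2(TPM + 1) scale (SE 0.27, limma adjusted p = 0.643), which did not pass the test. Hist1h2aa (chr13:23934462-23934851), which encodes its partner TH2A, begins 305 bases away on the opposite strand, so the pair is divergent. It stood at 2.795 and 2.001 TPM in Ctrl and at 2.998 and 1.17 TPM in AZ20, from 11, 9, 17 and 6 reads, and the groups overlapped (change -0.20, SE 0.38, limma adjusted p = 0.934). Hist1h1t (chr13:23695814-23696725), the testis linker H1t and the usual marker of mid to late pachytene cells, gave 0 and 16 reads with DMSO, then 11 and 0 with AZ20. Its TPM was 0, 1.52, 0.830 and 0, and its group means stayed under 1 TPM, so it was not tested. Each group thus had 1 library with Hist1h1t reads and 1 without, and the replicate with reads was not the same one. In the copy search described below, Hist1h1t had no window with an exact copy, and it holds poly(A) signal letters. Per the methods, the purity of the sorted cells was checked by staining for the H1T protein among other markers. The counts given here concern RNA only.

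Among the replication-type H2A genes, 11 of 17 had a read and 3 passed the filter on a mean TPM above 1. Hist3h2a (chr11:58954685-58956830), an H2A gene outside the large cluster, stood at 18.4 and 17.6 TPM in Ctrl and at 26.0 and 18.7 TPM in AZ20, from 369, 403, 753 and 489 reads. Both AZ20 libraries were above Ctrl, by 0.28 on the log2 scale (SE 0.24, limma adjusted p = 0.820). Its gene overlaps the first exon of Trim17, and the kit does not mark strand, so reads of both genes in the shared stretch cannot be told apart. Trim17 itself had 0.361 to 0.862 TPM. Hist2h2ab (chr3:96219865-96220308) had 3.53 and 1.32 TPM in Ctrl and 1.93 and 1.16 TPM in AZ20, with overlapping groups (change -0.37, SE 0.41, adjusted p = 0.867). Hist2h2ac (chr3:96220361-96220880) passed the filter by a hair, with a Ctrl mean of 1.0006 TPM, from 7 reads and 1 read in Ctrl with none in either AZ20 library (change -0.88, SE 0.47, adjusted p = 0.685). Just under the filter stood the H3 gene Hist2h3c2, whose higher group mean was 0.808 TPM.

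Of the 17 H2B genes, 7 had a read and 4 were tested. Hist1h2bp (chr13:21787461-21789213) had 20.9 and 7.15 TPM in Ctrl and 13.3 and 8.72 TPM in AZ20, so the gap between the replicates of a group exceeded that between groups (change -0.18, SE 0.47, limma adjusted p = 0.956). Hist2h2be (chr3:96221119-96223738) had 6.09 and 2.72 TPM in Ctrl and 5.99 and 5.15 TPM in AZ20 (change 0.35, SE 0.36, adjusted p = 0.852). Hist1h2bm (chr13:21722044-21722567), at 0.520 and 2.503 TPM in Ctrl and 1.26 and 2.20 TPM in AZ20, overlapped too (change 0.22, SE 0.46, adjusted p = 0.940, or a change of -0.12 after quantile normalization). Hist1h2bj (chr13:22043214-22043676) rested on 1 read in each Ctrl library and 11 and 3 in AZ20 (change 0.81, SE 0.41, adjusted p = 0.663).

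The H4 genes, which encode the same or nearly the same protein, had tested members with changes of either sign. Of 13, 7 had a read and 5 were tested. Hist1h4h (chr13:23531050-23531519) stood at 12.03 and 6.71 TPM in Ctrl and at 5.18 and 3.19 TPM in AZ20, from 58, 37, 36 and 20 reads. Both AZ20 libraries were below both Ctrl libraries, with a change of -0.98 (SE 0.35, limma adjusted p = 0.427). With the replicate number as a block the adjusted p was 0.0279, and the change stayed just short of 2-fold, so Hist1h4h was not called. Voom on the recovered reads with the block gave an adjusted p of 0.529. The change was -1.12 with a pseudocount of 0.1 (adjusted p = 0.489 without the block), so its side of the 2-fold threshold depends on the pseudocount. Hist1h4c (chr13:23697635-23698454) was higher in both AZ20 libraries than in either Ctrl library, at 0 and 1.67 TPM in Ctrl and 2.65 and 4.15 TPM in AZ20, from 0, 6, 12 and 17 reads (change 1.41, SE 0.50, adjusted p = 0.423). Hist1h4a (chr13:23760692-23761230) had 5.08 and 0.278 TPM in Ctrl and 9.92 and 4.396 TPM in AZ20, from 16, 1, 45 and 18 reads, and its groups overlapped (change 1.46, SE 0.71, adjusted p = 0.648). Both were called higher by limma with the replicate block, at adjusted p = 0.00170 for Hist1h4a and 0.00875 for Hist1h4c. Voom on the recovered reads with the block gave an adjusted p of 0.567 and 0.561. Hist1h4c had passed the filter only through AZ20, with a Ctrl mean of 0.834 TPM. The change of Hist1h4a was 0.34 without Ctrl replicate 2 and 2.59 without Ctrl replicate 1, and that of Hist1h4c was 0.70 without Ctrl replicate 1 and 2.12 without Ctrl replicate 2.

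Hist1h4i (chr13:22040636-22041362) had 1.66 and 2.26 TPM in Ctrl and 2.69 and 4.26 TPM in AZ20, without overlap (change 0.58, SE 0.32, limma adjusted p = 0.689). Hist1h4b (chr13:23757013-23757409) followed the replicate and not the treatment, at 5.40 and 1.67 TPM in Ctrl and 6.39 and 1.47 TPM in AZ20 (change 0.05, SE 0.61, limma adjusted p = 0.993, or a change of -0.21 after quantile normalization and -0.015 with median-of-ratios size factors). Of the 12 H3 genes 6 had a read, and Hist2h3c1 (chr3:96246685-96248509) alone was tested. It gave 2 and 42 reads with DMSO, then 44 and 12 with AZ20, or 0.109, 1.99, 1.66 and 0.501 TPM. Its order was thus reversed between the replicates, with a change of 0.13 (SE 0.55, adjusted p = 0.975), or -0.36 after quantile normalization.

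**Figure D2:**
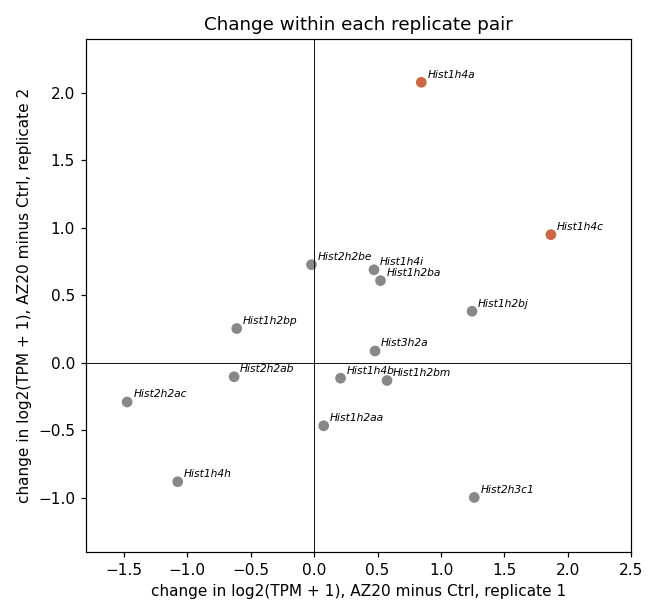
Change in log2(TPM + 1) from Ctrl to AZ20 within replicate 1 (horizontal) and within replicate 2 (vertical) for the 15 tested members; orange points are the 2 called higher with the replicate block. Of the 15, 6 lie in the quadrant above 0 in both replicates, 3 in that below 0 in both and 6 in the others. These counts were not taken over all genes. Hist2h2ac, Hist1h4c and Hist1h2bj, which passed the filter only through the group where they are higher, are among the 15.

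Across the members, no gene passed the call (at least 2-fold and a limma adjusted p under 0.05): 0 of 15 tested, against 2.33% of all 10316 genes tested (2.28% higher and 0.0485% lower). At an unadjusted limma p under 0.05, 1 member was higher (Hist1h4c) and 1 was lower (Hist1h4h), where 828 and 117 of all 10316 genes were. Voom on the recovered reads called 0 members. With the replicate block limma called 2 of 15 higher and 0 lower, against 424 higher and 23 lower of all 10316 genes (4.33% in either direction). Levels of the 2 groups did not overlap in 7 of the 15 members (5 above Ctrl and 2 below), where 38.1% of all tested genes did not. Hist2h2ac, Hist1h4c and Hist1h2bj are among the 7 and passed the filter only through the group where they are higher, so nothing is read from this count. The same holds for the call and the unadjusted p of Hist1h4c. The changes were positive in 10 and negative in 5, where 6166 of all 10316 genes were positive. These counts and the medians in this paragraph include Hist2h2ac, Hist1h4c and Hist1h2bj, so nothing is read from them either. The median change of the members was 0.22 on the log2 scale beside 0.07 over all genes tested. After quantile normalization 7 of 15 members were positive with a median of -0.12 (4170 of 10316 and -0.07 over all genes). Without AZ20 replicate 1 it was 7 of 14 with a median of -0.11 (5912 of 10306 and 0.07 over all genes). The other 53 members fell under the filter and add nothing to these counts.

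Summed over all 68 members, the level was 84.3 and 56.6 TPM in Ctrl and 92.3 and 61.7 TPM in AZ20. The means were 70.4 ± 19.6 and 77.0 ± 21.6 TPM (SD, n = 2 each, two-sided exact permutation p = 0.667, where 0.333 is the smallest p that 2 against 2 can give). Replicate 1 was above replicate 2 in both groups, and that gap was wider than the difference between treatments, which came to 7.97 TPM in replicate 1 and 5.11 TPM in replicate 2. H4 followed the same layout, with 25.9 and 13.03 TPM in Ctrl and 27.9 and 17.6 TPM in AZ20. The H2B genes summed to 27.8 and 12.6 TPM in Ctrl and 22.8 and 16.7 TPM in AZ20, so replicate 1 was lower with AZ20 and replicate 2 higher.

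The H2A sum was 24.2 and 20.7 TPM in Ctrl and 30.6 and 21.0 TPM in AZ20. The testis-specific sum was 4.86 and 5.78 TPM in Ctrl and 7.23 and 5.14 TPM in AZ20, and the H3 sum 1.51 and 3.74 TPM in Ctrl and 3.71 and 1.17 TPM in AZ20. For each of these classes the 2 groups overlapped, and the exact permutation p was 0.667 or 1. As shares of the member total, H2A took 28.7 to 36.5%, H2B 22.3 to 32.98%, H4 23.04 to 30.7%, the testis-specific genes 5.76 to 10.2%, H3 1.79 to 6.62% and the linkers 0 to 0.105% over the 4 libraries. Each share had an exact permutation p of 1. In bulk RNA, fewer cells that hold a transcript and less of it per cell cannot be told apart.

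**Figure D3:**
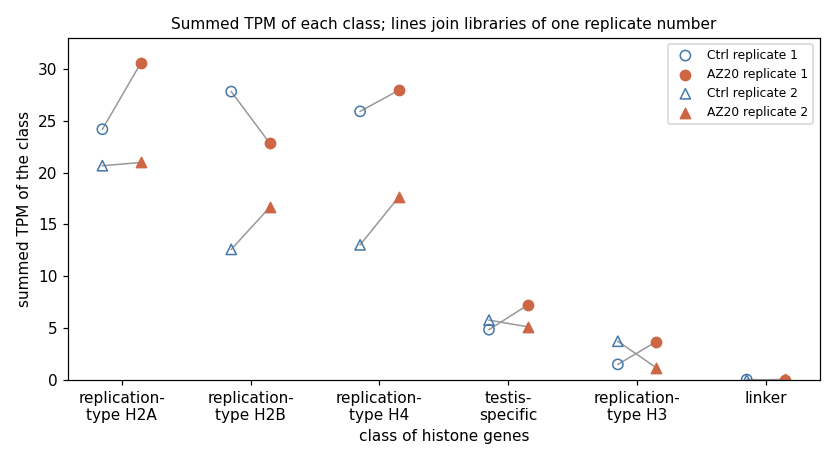
Summed TPM of each class of clustered histone genes (vertical axis, linear from 0), with lines joining the Ctrl (open) and AZ20 (filled) libraries of the same replicate number, circles for replicate 1 and triangles for replicate 2. In H2B, H3 and the testis-specific class the lines of the 2 replicates slope in opposite directions, in H2A and H4 both slope upward, and the linker class is at 0.0651 TPM or less.

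Most member reads lay on genes with poly(A) signal letters at the transcript end. Within the last 50 bases of the GENCODE transcripts, the poly(A) signal AATAAA was found in 15 members, which held 3310 of 3920 member reads (84.4%), and the 53 without it held 610 (15.6%). Of the 15, 6 had no read. Some annotated transcripts, such as those of Hist1h2ba and Hist1h2aa, end with the coding sequence, so letters beyond it could not be found. Among members with the stem-loop letters, the 21 whose annotated transcript runs on for more than 100 bases after them held 2372 reads, and the 21 that end within 100 bases held 587. The transcript of Hist3h2a runs on for 1643 bases after its stem-loop, and those of Hist1h4h and Hist1h2bp for 46 and 38. Hist3h2a accounts for most of the reads in these groups, so the shares describe few genes.

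Exact copies of stretches of 150 bases were common. For each member, every 150-base window of its longest transcript was compared with the transcripts of all other genes that do not overlap it. A window with any differing base counted as without a copy, so such a window need not align to a single place. In 18 members every window was without a copy, and 13 of these had a read, 2823 in all. In 30 members at least 50% of the windows but not all were without one, and 14 had a read, 1016 in all. In the 20 members with fewer than 50%, 10 had a read, and these came to 81 reads (2.07% of the member total), with no member at a mean TPM above 1. Of the 31 members without a read, 10 were in this last group and 5 had no copy in any window. The length recovered from the TPM steps equalled the coding length in 16 of the 36 members where both were known, among them Hist1h4a, Hist1h4b, Hist1h4c, Hist1h2ba and Hist1h2aa, so reads beyond the coding sequence of those genes were not counted. The windows of Hist1h4a, Hist1h4b and Hist1h4c run beyond that sequence, so their place in the copy groups need not hold for the counted part. How much of the low level comes from the primer, the alignment or the gene models was not tested.

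**Figure D4:**
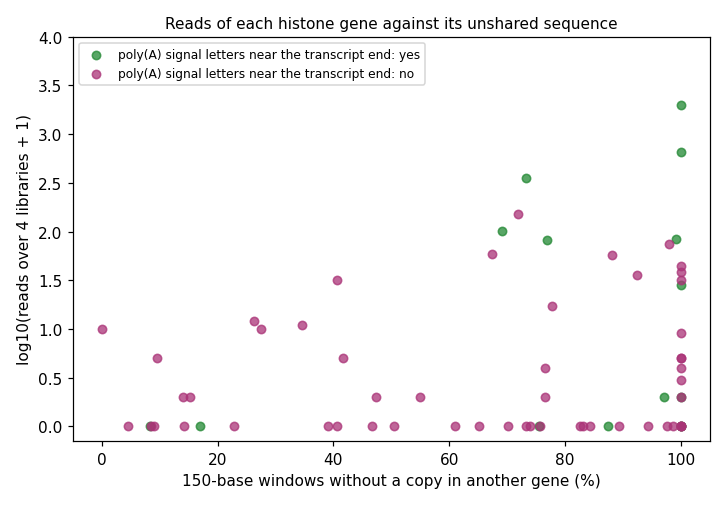
Reads of each of the 68 members over the 4 libraries, as log10(reads + 1), on the vertical axis. The horizontal axis is the percent of 150-base windows of its longest transcript without an exact copy in another gene not overlapping it. Green members hold poly(A) signal letters in the last 50 bases and purple members do not. Members left of 50% have 31 reads or fewer, the highest green points are Hist3h2a and Hist2h2be at 100%, and members at 0 reads occur along the whole axis.

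Promoters of 60 members were matched in the RefSeq table of GRCm38.p6, which spans 250 bases before to 50 after the start. TATAAA, searched on both strands, was in 35 of these (58.3%, beside 13.6% of all 32851 promoters). CCAAT was in 51 (85.0%, beside 37.4%) and the octamer ATTTGCAT in 13 (21.7%, beside 1.74%). These letters were common to the family and are not shown to be used in these cells.

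Replacement variants, encoded outside the clusters, had a far higher summed TPM than the clustered genes. Of 20 listed, 17 were in the table, and they summed to 10664 and 13740 TPM in Ctrl and 12856 and 13637 TPM in AZ20. These sums are 126 to 243 times the sum of the 68 members in the same library. The kit primes from poly(A) tails and only unique alignments were kept, so the ratio compares counted RNA and not amounts in the cells. H3f3b, which encodes H3.3, stood at 5558 and 7764 TPM in Ctrl and 7127 and 7795 TPM in AZ20. H2afz, which encodes H2A.Z, stood at 3101 and 3619 TPM in Ctrl and 3329 and 3261 TPM in AZ20. H3f3a, the second H3.3 gene, had 1496 and 1671 TPM in Ctrl and 1796 and 1858 TPM in AZ20. None of these 3 passed the test. Of 15 variants tested, 1 was called higher, the X-linked H2B gene H2bfm, at 1.42 and 0.331 TPM in Ctrl and 41.4 and 41.6 TPM in AZ20 (log2 change 4.57, SE 0.33, limma adjusted p = 0.000338). With the replicate block Cenpa, the centromeric H3, was called too, whereas voom with the block called 1 variant, as without it. Over all genes tested, the share called by limma was 2.33%, and 4.33% with the replicate block. The median change of the 15 variants was 0.21.

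**Figure D5:**
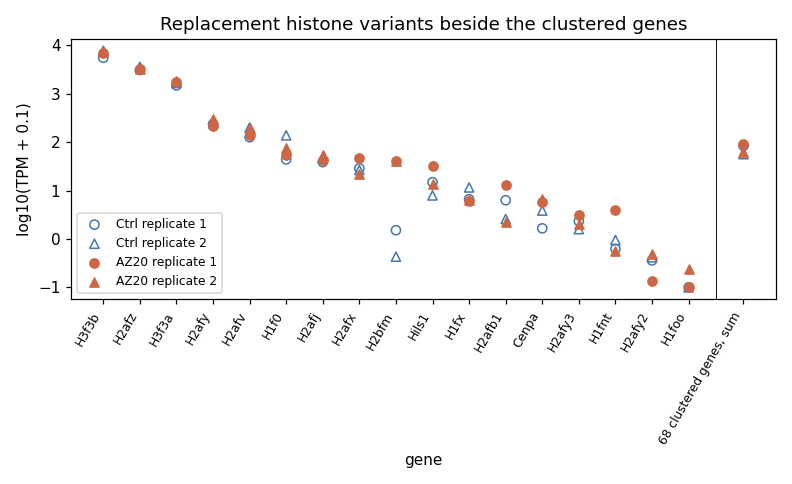
TPM of each replacement variant in the 4 libraries, on a log10 axis, with the sum of the 68 clustered genes at the right (symbols as for the members). H3f3b, H2afz and H3f3a lie above 1000 TPM in every library, the clustered sum lies between 56.6 and 92.3 TPM, and H2bfm is the variant whose Ctrl and AZ20 symbols lie furthest apart.

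Of the genes that act on histone mRNA or carry histones, 2 were called, where 2.33% of all 10316 genes tested were. Of 19 mRNA factors with a value, 17 were tested, and Slbp, the stem-loop binding protein, had 356 and 466 TPM in Ctrl and 552 and 453 TPM in AZ20 (change 0.29, SE 0.19, limma adjusted p = 0.751). The TPM of Slbp was therefore above the summed TPM of all the clustered genes in every library, with the same limit on comparing amounts. Lsm10, a subunit of the U7 particle that processes histone mRNA, had 257 and 264 TPM in Ctrl and 313 and 329 TPM in AZ20, and the cleavage factor Cstf2t stood at 69.5 to 102 TPM. The X-linked cleavage factor Cstf2 was called higher, listed at 0 in both Ctrl libraries and at 4.88 and 3.06 TPM in AZ20 (adjusted p = 0.0145). Of 27 histone chaperones tested, 1 was called higher, the X-linked Rbbp7, which binds histones in several chromatin complexes, at 0 and 0.420 TPM in Ctrl and 23.6 and 27.6 TPM in AZ20 (adjusted p = 0.000209). Of the chaperones with most RNA, Npm1 and Nasp had changes of 0.09 and 0.07. Asf1b, which hands H3 and H4 to other chaperones, stood at 231 and 353 TPM in Ctrl and 505 and 536 TPM in AZ20 without overlap (change 0.86, SE 0.22, adjusted p = 0.173). With the replicate block its adjusted p was 0.00360, and the change was under 2-fold, so it was not called.

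Of 22 S phase genes tested 0 were called by limma and 0 by voom. At an unadjusted limma p under 0.05, 1 of them was higher, where 828 of all 10316 genes were. That gene passed the filter only through its AZ20 mean, so nothing is read from this count. Other S phase genes did the same and are in the median of the list. The median change of the S phase genes was -0.01, and the replication clamp Pcna had 627 and 760 TPM in Ctrl and 789 and 766 TPM in AZ20. Gins1 and Gins2, subunits of the replicative helicase, had changes of -0.06 and 0.03. The median change was 0.19 for the mRNA factors and 0.13 for the chaperones, beside 0.07 over all genes. The called genes H2bfm, Cstf2 and Rbbp7 also passed the filter only through their AZ20 means, and they are in the medians of their lists. H2bfm, Cstf2 and Rbbp7 were not called when either AZ20 library was left out, where no gene of the whole table was called, and Cstf2 was also lost without either Ctrl library.

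Pachytene markers, 9 of 9 tested, summed to 11112 to 11406 TPM in the 4 libraries, and 0 were called. Spermatogonial markers summed to 9.68 and 21.8 TPM in Ctrl and 14.1 and 16.1 TPM in AZ20, with Dmrt1 and Stra8 at 0. Markers of Sertoli cells summed to at most 0.651 TPM, with Sox9, Wt1, Rhox5 and Trf at 0. Markers of Leydig cells, macrophages and myoid cells summed to at most 4.597 TPM in any library. Round spermatid markers, of which 8 of 8 were tested, summed to 368 and 151 TPM in Ctrl and 776 and 255 TPM in AZ20, with a median change of 0.77. That median was 0.19 without AZ20 replicate 1, 1.26 without AZ20 replicate 2, 1.39 without Ctrl replicate 1 and 0.22 without Ctrl replicate 2. None of them was called, and with the replicate block Prm1 was (limma adjusted p = 0.000766). Like the clustered histone sum, the sum of the round spermatid markers was higher in replicate 1 than in replicate 2 and higher with AZ20 in each replicate. Acrv1 and Tssk6 did not have this layout. The part of these markers in the histone values was not tested.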

How the data were processed

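RNA-seq libraries were prepared from sorted and cultured spermatocytes with a kit that primes from poly(A) tails and does not mark strand, and were read as 150-bp pairs. Trimming (trimmomatic 0.39) and alignment to GRCm38/mm10 (STAR 2.5.4b, unique alignments kept) were done by the authors, who counted with featureCounts 2.0.1 over UCSC refGene models and deposited TPM for each library. The labels give a culture temperature of 34 °C, which differs from the one in the methods. From these TPM, whole reads were recovered for 16857 of 16857 genes above 0, since values step by 1 read, and lengths were bounded by coding length. They summed to 13998363 and 15886907 in Ctrl and 20298843 and 18585350 in AZ20. Blank lines (92) were left out.

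Log2(TPM + 1) was fitted with limma 3.58.1 (R 4.3.3) with an intensity trend, over genes whose mean in either group exceeded 1 TPM. A gene was called with at least a 2-fold change and a Benjamini-Hochberg adjusted p under 0.05. Fold changes on this scale understate changes of low genes. Class sums were compared with two-sided exact permutation tests. The methods divide the cells of a mouse between treatments, and deviations of same-numbered libraries correlated (0.229), so the replicate block was fitted as an alternative, beside other pseudocounts, filters, scalings, voom and leaving out each library. Scripts were checked on simulated data. Genes named are all linker and testis-specific members, members above the filter, the members just above and below it, and of each of the 4 gene lists (not the cell markers) the called genes and the 3 with most TPM. Members and lists were chosen with earlier results of these data known. Sequences came from GENCODE transcripts and RefSeq promoters. Python 3.11.15 with scipy 1.17.1, numpy 2.4.6 and pandas 2.3.3 gave the other values.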

Additional observations from a re-analysis of the deposited data

How the results depend on the processing

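Member changes were computed under 198 combinations of member and alternative, of which 183 kept the direction and 15 turned it, 11 of these with a library left out. Of the 15 tested members, 8 kept their direction in every alternative run. The replicate block raised the members called higher from 0 to 2 (Hist1h4a and Hist1h4c) and the replacement variants from 1 to 2, and over all genes it gave 424 higher and 23 lower in place of 235 and 5. Beside these and Cenpa it called Prm1 among the cell markers and changed no other call of the lists, and the class sums had the same differences within replicate pairs. With no filter on TPM, the counts called higher were 0 for the replacement variants, 0 for the mRNA factors and 0 for the chaperones, where 0 of 23420 genes were called. A mean TPM above 5 left 0 mRNA factors, since Cstf2 falls under it, and a pseudocount of 0.01 left 0 chaperones, the cause of which was not tested. Quantile normalization moved the median of all genes by -0.14 on the log2 scale, and the changes of Hist1h2bm, Hist1h4b and Hist2h3c1 became -0.12, -0.21 and -0.36. Median-of-ratios size factors turned that of Hist1h4b to -0.015.

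With each library left out in turn, the calls ranged from 0 to 1 for the replacement variants and for the chaperones and were 0 for the mRNA factors, and the changes ranged from -0.38 to 0.82 for Hist1h2bm, -0.89 to 0.53 for Hist1h2bp, -0.74 to 0.84 for Hist1h4b, -0.64 to 0.24 for Hist1h2aa, -0.85 to 0.11 for Hist2h2ab, -0.11 to 0.82 for Hist2h2be and -0.58 to 0.85 for Hist2h3c1. A group left with 1 library is assumed to vary like the other. AZ20 minus Ctrl in summed TPM ranged from -8.76 to 21.8 for all members, -0.0257 to 0.0394 for the linkers, -0.178 to 1.91 for the testis-specific genes, -1.45 to 8.17 for H2A, -8.07 to 7.15 for H2B, -1.45 to 1.09 for H3 and -3.11 to 9.76 for H4. In percentage points of the member total it ranged from -0.0304 to 0.0751 for the linkers, -2.13 to 2.32 for the testis-specific genes, -2.95 to 4.90 for H2A, -7.10 to 3.61 for H2B, -3.65 to 1.17 for H3 and -1.28 to 6.40 for H4. No linker gene reached 10 reads, so that alternative gave no linker value. Over the 4 libraries 18 members had 1 to 9 reads, which limits what can be said of them.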

Other observations

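Hist4h4, the H4 gene that lies alone on chromosome 6 (chr6:136801553-136804415), stayed under the filter and was picked after its values were seen. It gave 32 and 15 reads with DMSO, then 28 and 7 with AZ20, or 1.10, 0.452, 0.669 and 0.185 TPM. Replicate 1 was above replicate 2 in both groups, as it was for 9 of the 15 tested members, a count that was not taken over all genes. The transcript of Hist4h4, which runs on for 2445 bases after the stem-loop letters and holds poly(A) signal letters, is the longest of the H4 members with at least 10 reads.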
